A study of Arabidopsis thaliana with 10 samples.

Results

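Transposable element (TE) genes of the Arabidopsis pericentromeres whose pollen small RNAs are mostly 23 and 24 nt long are described here. A TE gene was taken as a member if its locus identifier lay in the pericentromeric run of its chromosome, and it was chosen by 2 measured values, namely if its signal summed over 21 to 24 nt reached 10 in both WT Col-0 libraries, and if 23- and 24-nt RNAs made up on average at least 75% of that signal in these libraries. Of 3340 TE genes in those runs, 1652 were members, out of 3895 TE genes and 33271 loci with a value in all. A further 1277 pericentromeric TE genes reached the level but not the length share, and 411 missed the level. Signal means reads that match the genome perfectly, each divided by its number of genomic matches and scaled by the authors to the size of the library.

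Pollen small RNAs were sequenced from 5 genotypes with 2 libraries each. The nrpd1a-3 FTL and WT FTL libraries came from the same kind of F1 plant, heterozygous for nrpd1a-3 and for FTL1230, a transgene with DsRed under the LAT52 promoter that lies close to NRPD1a. Grains were sorted by flow cytometry, so that nrpd1a-3 FTL pollen carries the mutant allele and lacks DsRed whereas WT FTL pollen carries the wild-type allele and DsRed, and in both the parent plant still had a working copy. The nrpd1a-3 allele removes the largest subunit of RNA polymerase IV. The pMGH3::RTL1 and pLAT52::RTL1 plants express a Myc-tagged RTL1 in the Col-0 background, the first in male germline cells once pollen mitosis I has passed, and the second in late microspores and then mainly in the vegetative cell, and both libraries of a construct come from independent transgenic lines. WT Col-0 is the unsorted wild type. The labels call the libraries of a genotype biological replicates and do not state separate plantings, and the p-values measure the spread between them.

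RNA polymerase IV transcribes silent TEs, the RNA-dependent RNA polymerase RDR2 makes the transcripts double-stranded, and the Dicer enzyme DCL3 cuts them into 24-nt siRNAs, which guide cytosine methylation back to the same sequences in RNA-directed DNA methylation (RdDM). Other Dicers make 21- and 22-nt siRNAs, which are known to accumulate at TEs in pollen, where the vegetative cell loses heterochromatin and the sperm cells keep it. RTL1 is an RNase III-like protein that cleaves double-stranded RNA and thereby prevents siRNAs from being made. Pericentromeres of Arabidopsis are rich in Athila elements, which are long terminal repeat retrotransposons of the Gypsy superfamily.

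The following stretches come from members whose signal was lower in pMGH3::RTL1 relative to pLAT52::RTL1 pollen. Signal was measured per TE gene and not per stretch. The first 4 lie in AT5G29060, which changed most among its kind, and in 3 of the highest members, all of which align to windows which the study lists under ATGP2N, a Gypsy retrotransposon, and capitals mark 24-base words shared by at least 12 of the 22 members that align to them. The windows are regions that the study called differentially methylated between genotypes. Coordinates are those of TAIR10.1. The stretches are chr5:11128811-11129015 (plus strand), chr5:10113067-10113267 (minus strand), chr4:2362596-2362796 (plus strand) and chr3:12948737-12948936 (plus strand), in the order printed.
AT5G29060: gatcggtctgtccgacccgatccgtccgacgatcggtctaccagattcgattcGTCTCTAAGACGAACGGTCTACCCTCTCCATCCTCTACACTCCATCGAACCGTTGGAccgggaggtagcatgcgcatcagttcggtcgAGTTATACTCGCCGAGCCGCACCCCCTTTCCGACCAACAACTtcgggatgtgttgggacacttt
AT5G28120: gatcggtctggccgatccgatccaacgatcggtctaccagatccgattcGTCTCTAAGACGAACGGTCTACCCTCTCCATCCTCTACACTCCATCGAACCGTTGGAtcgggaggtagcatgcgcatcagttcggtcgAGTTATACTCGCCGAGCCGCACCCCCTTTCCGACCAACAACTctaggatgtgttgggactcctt
AT4G04655: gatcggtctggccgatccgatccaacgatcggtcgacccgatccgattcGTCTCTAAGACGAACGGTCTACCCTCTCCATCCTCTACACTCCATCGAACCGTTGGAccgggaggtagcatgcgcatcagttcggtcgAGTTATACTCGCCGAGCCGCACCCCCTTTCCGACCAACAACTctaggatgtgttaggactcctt
AT3G31945: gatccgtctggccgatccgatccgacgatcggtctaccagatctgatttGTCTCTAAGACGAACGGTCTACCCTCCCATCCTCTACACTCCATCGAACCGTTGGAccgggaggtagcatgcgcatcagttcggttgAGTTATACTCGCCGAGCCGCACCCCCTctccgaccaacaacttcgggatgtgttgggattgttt
Another word, CCACCAGCTCGAGTGTCAGCTGAC, was held by 17 of these 22 members, by 22 TE genes and at 30 places in the genome. A small RNA of that sequence adds a share of its signal to each of them, so their values are not independent.

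The next 3 stretches come from the members with the lowest pMGH3::RTL1 signal relative to pLAT52::RTL1 that do not align to such a window, and capitals mark the 24-base words that all 3 hold. They lie at chr2:2570237-2570486 (plus strand), chr2:4243349-4243592 (minus strand) and chr2:4236956-4237199 (minus strand), in the order printed, and span most of genes that are only 407, 461 and 461 bp long.
AT2G06480: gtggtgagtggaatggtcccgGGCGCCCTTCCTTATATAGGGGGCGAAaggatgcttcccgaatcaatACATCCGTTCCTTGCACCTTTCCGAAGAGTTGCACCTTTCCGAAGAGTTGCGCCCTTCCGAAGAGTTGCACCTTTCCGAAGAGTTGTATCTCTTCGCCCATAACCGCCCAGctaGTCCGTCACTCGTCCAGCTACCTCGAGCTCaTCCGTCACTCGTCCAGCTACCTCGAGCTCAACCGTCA
AT2G10790: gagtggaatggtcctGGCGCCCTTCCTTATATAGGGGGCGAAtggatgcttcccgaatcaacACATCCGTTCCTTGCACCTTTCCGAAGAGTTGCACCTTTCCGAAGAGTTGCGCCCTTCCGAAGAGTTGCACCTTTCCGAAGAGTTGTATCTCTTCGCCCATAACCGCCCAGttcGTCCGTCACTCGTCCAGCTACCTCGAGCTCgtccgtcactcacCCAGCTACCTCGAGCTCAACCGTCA
AT2G10770: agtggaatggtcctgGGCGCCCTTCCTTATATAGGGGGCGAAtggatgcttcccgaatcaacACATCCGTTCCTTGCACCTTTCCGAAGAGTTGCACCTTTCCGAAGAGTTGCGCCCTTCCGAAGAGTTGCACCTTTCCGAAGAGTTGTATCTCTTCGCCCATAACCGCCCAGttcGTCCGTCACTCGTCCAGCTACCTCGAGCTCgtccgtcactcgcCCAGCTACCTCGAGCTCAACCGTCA

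A single read was taken to be worth the most frequent deposited value of its library, between 0.430 and 1.46 units of signal. By that estimate, on which all read numbers here rest, each library held 4296912 to 10349598 hit-weighted reads on annotated loci. The median member drew 8.58 and 4.58 reads in the nrpd1a-3 FTL libraries, 61 and 19 in WT FTL, 45.3 and 32.9 in pMGH3::RTL1, 108 and 52.2 in pLAT52::RTL1 and 137 and 50.5 in WT Col-0. MIR845a, a pollen microRNA locus, was abundant in every library (56465 to 859267). Small RNA signal at the RTL1 locus was 1023 and 302 in pMGH3::RTL1 and 93.7 and 23.8 in pLAT52::RTL1 pollen, against 4.30 and 11.9 in WT Col-0 pollen. RNA length differed within WT Col-0, and taken alone replicate 1 would admit 1628 of the 1652 members by length share and replicate 2 only 794. In bulk pollen, fewer cells of a type and less RNA per cell cannot be told apart.

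In WT Col-0 pollen, whose values chose the members and are given as a description, the signal from 21 to 24 nt ran from 10.2 to 2189 with a median of 53.7. It was concentrated in few members. The 10 highest held 10.2% of the total and the 100 highest 37.7%. The median share of 23- and 24-nt RNAs was 79.1%, and 29 members reached 90%. Just inside the length limit were AT1G36260 (75.01%), AT1G42300 (75.02%) and AT4G08092 (75.02%), and just outside it AT2G14400 (74.97%), AT3G33085 (74.97%) and AT5G28253 (74.99%). At the level limit, the lower of the 2 WT Col-0 values was 10.01 in AT2G10370, 10.02 in AT1G42736 and 10.03 in AT2G12960, against 9.88 in AT2G05087, 9.90 in AT4G06612 and 9.90 in AT5G28240, which were left out.

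Members lay on all 5 chromosomes, with 237, 371, 383, 316 and 345 on chromosomes 1 to 5. Their annotated length had a median of 2359 bp (127 to 12954 bp), and their median GC content was 40.8%, against 43.3% in the pericentromeric TE genes under the length share. In the median member 60.8% of the 24-base words occurred only once in the genome. By alignment to windows that name a single family, 649 members received a family, of which 404 belonged to Gypsy elements, 95 to En-Spm, 83 to MuDR, 27 to Helitrons, 15 each to L1 and Copia and 5 to HAT elements. These windows are regions that the study called differentially methylated, in part in the genotypes compared here. A member called a copy of a family below received that family by this alignment only.

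The highest member was AT2G10600 (chr2:4127908-4131031, an ATHILA2 copy), with a signal from 18 to 30 nt of 2475 and 2108 in WT Col-0 pollen. Next came AT5G28120 and AT5G28110 on chromosome 5, with 1831 and 1740, and 1808 and 1716, in WT Col-0 pollen. Both received the family ATHILA0_I by alignment but also align to windows listed under ATGP2N, so their family is not settled. In these neighbours only 0.817% and 1.36% of 24-base words were unique, so most of their reads were shared with other loci. AT3G31945, AT4G04655 and AT5G31770 completed the 6 highest, and the last of these, 537 bp long, had the signal of 2773 per kb.

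Members lost most of their small RNAs in pollen that carries nrpd1a-3. Summed over all 1652 members, the signal from 21 to 24 nt was 22640 and 9217 in nrpd1a-3 FTL pollen, against 109490 and 74445 in WT FTL pollen, and the lowest WT FTL library was above the highest nrpd1a-3 FTL library. Summed from 18 to 30 nt, WT FTL pollen had 5.77 times as much signal as nrpd1a-3 FTL pollen on the members, and 0.698 times as much over all loci. Both nrpd1a-3 FTL libraries lay below both WT FTL libraries in 1579 of the 1652 members, against 49.8% of the 32679 loci with any signal (50.7% of the loci tested), and above both in 1, AT5G39205, against 5.76% (17% of the loci tested). The groups overlapped in the other 72. Members made up 6.86% and 4.52% of the TE gene signal in nrpd1a-3 FTL pollen and 28.6% and 22.5% in WT FTL pollen.

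**Figure D1:**
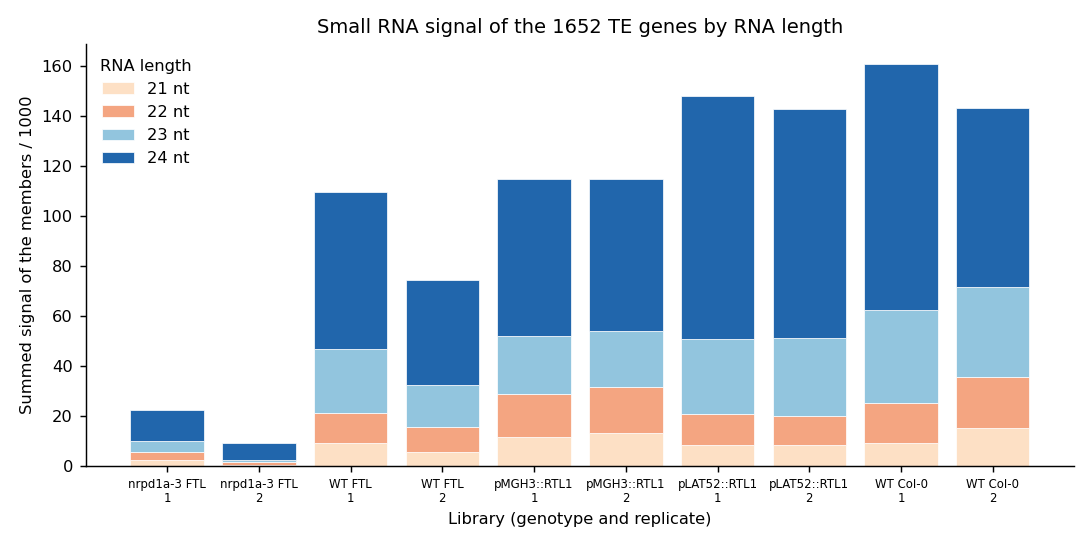
Stacked bars give the signal summed over the 1652 members in each of the 10 libraries (x axis, genotype and replicate; y axis, signal divided by 1000), divided by RNA length. Both nrpd1a-3 FTL bars (22640 and 9217 from 21 to 24 nt) are far below both WT FTL bars (109490 and 74445), and the 24-nt segment is smaller in pMGH3::RTL1 (62611 and 60766) than it is in pLAT52::RTL1 pollen (97353 and 91257).

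The loss was measured in both length classes. At 24 nt the members summed to 12535 and 6561 in nrpd1a-3 FTL pollen, against 62645 and 41961 in WT FTL pollen, and 1518 members had both mutant libraries below both others (45.1% of all loci with 24-nt signal). At 21 and 22 nt together they summed to 5611 and 1687 in nrpd1a-3 FTL pollen, against 21340 and 15707 in WT FTL pollen, and 1305 of 1650 members had both mutant libraries below (27.6% of all loci). The share of 24-nt RNAs was 55.4% and 71.2% in nrpd1a-3 FTL pollen, against 57.2% and 56.4% in WT FTL pollen, so the groups overlapped in that measure.

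In limma's test, 715 members were lower in nrpd1a-3 FTL pollen at a Benjamini-Hochberg adjusted p below 0.05 and 0 were higher (0 also at an unadjusted p below 0.05), where 21.8% of the 7380 loci tested were lower and 0.0678% higher. The median change of the 1295 members with enough reads was -2.41 on the log2(signal + 1) scale, against -0.97 over all loci tested. The remaining 357 members, with a median WT Col-0 level of 19.2, fell under the minimum of 12 reads per library. Most reads of the members came from the WT FTL libraries, so the filter favours members that were high there and these counts add nothing to the values of all 1652. The calls sit at the edge of the threshold: their adjusted p began at 0.0442 and ended just under the threshold, 1170 members were lower at an unadjusted p below 0.05, and 9 of the other settings tried left 0 calls with 134 to 1379 members lower at an unadjusted p. Without replicate 1 of WT FTL 0 members were called and without replicate 2 of WT FTL 1, without replicate 1 of nrpd1a-3 FTL 1229 and without replicate 2 of nrpd1a-3 FTL 126. Both sorted populations were collected at the same time from the same kind of plant, although no source states that a replicate number marks 1 sort. With the replicate number as a block, 1270 members were lower (48% of all loci tested), in a fit with 1 residual degree of freedom whose spread was taken from all loci in common. Files of replicate 1 list RNAs up to 45 nt in both sorted genotypes and those of replicate 2 do not. Scaling to the median ratio, the microRNA genes or the summed signal moved the members' changes by medians of 1.10, 0.25 and -0.47 on the log2 scale. Within replicate 1 the median change of the tested members was -2.15 (all loci -0.85), and within replicate 2 it was -2.66 (all loci -1.15).

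**Figure D2:**
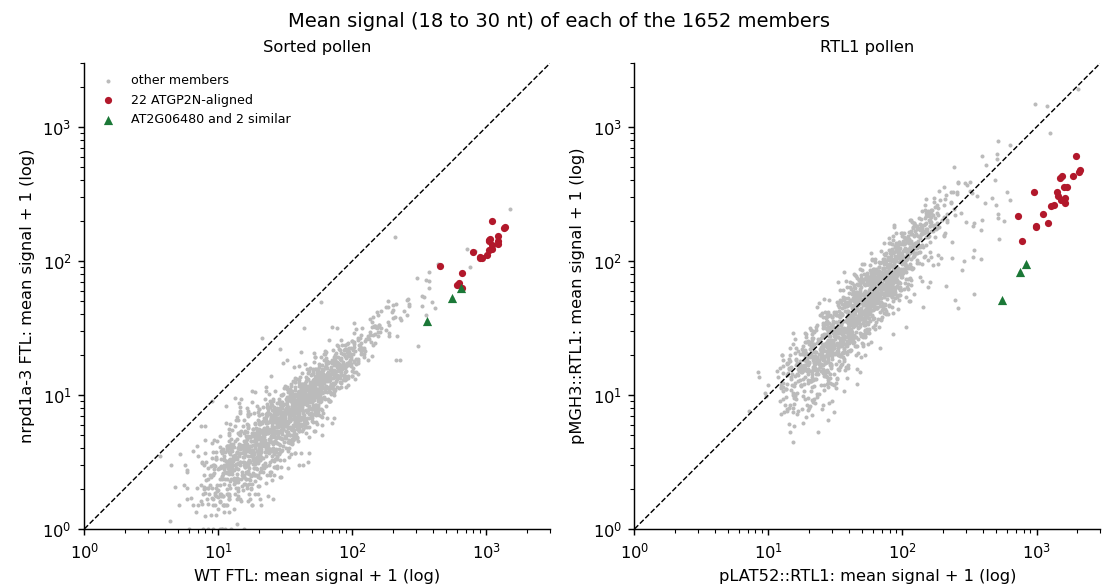
Each point is 1 of the 1652 members, placed by the mean signal plus 1 of its 2 libraries on logarithmic axes, nrpd1a-3 FTL against WT FTL on the left and pMGH3::RTL1 against pLAT52::RTL1 on the right, with the line of equal values dashed. On the left nearly the whole cloud lies under the line (median log2 change -2.41 of those tested). On the right it straddles the line (-0.14), apart from the 22 ATGP2N-aligned members (-2.24) and AT2G06480, AT2G10790 and AT2G10770.

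AT1G38440, a 1023-bp ATHILA2 copy on chromosome 1, changed most. It had 40.3 and 4.1 in nrpd1a-3 FTL pollen, against 510.8 and 107.6 in WT FTL pollen, a log2 change of -4.02 ± 1.03 (SE, limma adjusted p = 0.0442). The replicates of each genotype were far apart, yet the groups did not overlap. AT2G10960 (-3.97) and AT2G05800 (-3.91), on chromosome 2, and AT3G45446 (-3.74), on chromosome 3, are loci in which 99.5%, 99.9% and 99.9% of 24-base words are unique. AT2G05800 had 3.0 and 1.3 in nrpd1a-3 FTL pollen, against 52.7 and 38.6 in WT FTL pollen. AT2G10960 had 0.0 and 1.3 in nrpd1a-3 FTL pollen, against 33.7 and 15.7 in WT FTL pollen, and its values in the mutant are near those of a single read. AT4G08109 on chromosome 4 had 27.7 and 6.5 in nrpd1a-3 FTL pollen, against 245.9 and 175.4 in WT FTL pollen (-3.83). The highest member, AT2G10600, had 438.8 and 50.3 in nrpd1a-3 FTL pollen, against 2243 and 753.8 in WT FTL pollen, and its change of -3.12 ± 1.03 did not pass (limma adjusted p = 0.0531), but did with the replicate block (limma adjusted p = 8.64e-10).

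The 3 most positive changes among members with both WT FTL libraries at 10 or more were those of AT5G39205, AT3G42450 and AT5G35336, and none passed the test. AT5G39205, a 207-bp locus on chromosome 5, had 25.2 and 26.1 in nrpd1a-3 FTL pollen, against 21.4 and 19.3 in WT FTL pollen (0.32 ± 0.57, limma adjusted p = 0.713). AT3G42450 had 16.1 and 25.8 in nrpd1a-3 FTL pollen, against 37.1 and 18.7 in WT FTL pollen (-0.36 ± 0.62), and AT5G35336 had 172.7 and 126.0 in nrpd1a-3 FTL pollen, against 135.1 and 276.6 in WT FTL pollen (-0.39 ± 0.67). The groups overlapped in both of these. At 24 nt AT5G35336 nonetheless had 2.01 and 3.35 in nrpd1a-3 FTL pollen, against 24.4 and 16.3 in WT FTL pollen, so its remaining signal was of other lengths.

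The comparison of the RTL1 constructs, in which neither arm chose the members, differed by RNA length. Summed over the members, the signal from 21 to 24 nt was 114773 in each of the pMGH3::RTL1 libraries, against 148085 and 142757 in pLAT52::RTL1 pollen and 160721 and 143010 in WT Col-0 pollen. At 24 nt it was 62611 and 60766 in pMGH3::RTL1 pollen, against 97353 and 91257 in pLAT52::RTL1 and 98215 and 71195 in WT Col-0 pollen. At 21 and 22 nt the order turned, with 29069 and 31841 in pMGH3::RTL1 pollen, against 21040 and 20145 in pLAT52::RTL1 and 25480 and 35922 in WT Col-0 pollen. The 24-nt share of the members was 54.6% and 52.9% in pMGH3::RTL1, 65.7% and 63.9% in pLAT52::RTL1 and 61.1% and 49.8% in WT Col-0 pollen. The constructs did not overlap in any of these sums or shares. At 24 nt both pMGH3::RTL1 libraries lay below the WT Col-0 range and both pLAT52::RTL1 libraries within it, whereas at 21 and 22 nt both pMGH3::RTL1 libraries lay within that range and both pLAT52::RTL1 libraries below it.

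All 1652 members had enough reads for the test over 18 to 30 nt. In pMGH3::RTL1 relative to pLAT52::RTL1 pollen, 63 were lower and 1 higher at a limma adjusted p below 0.05 (2.49% and 1.05% of the 11584 loci tested), with a median log2 change of -0.14 (all loci -0.01). Both pMGH3::RTL1 libraries lay below both pLAT52::RTL1 libraries in 646 members, 39.1%, against 30.1% of the loci tested and 40.7% of all loci with signal, and above both in 396, 24%, against 28.9% of the loci tested and 13.6% of all loci with signal. Whether these shares lie above or below the background thus depends on which loci are counted. At 24 nt 127 members were lower and 0 higher (0.834% of all loci were higher, and 13 members at an unadjusted p), with a median of -0.38 (all loci -0.26), and 7.96% of all loci were lower. At 23 and 24 nt together 188 were lower and 4 higher (11.5% and 1.2%), with a median of -0.36 (all loci -0.29). At 21 and 22 nt 10 of 852 tested were lower and 81 higher (1.7% and 10.2%), with a median of 0.82 (all loci 0.65). The shares of members called at these lengths were thus near the background. Among all 1652 members, 1003 had a negative difference at 23 and 24 nt with a positive one at 21 and 22 nt, 403 were positive and 238 negative at both, and 8 were the reverse of the first.

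**Figure D3:**
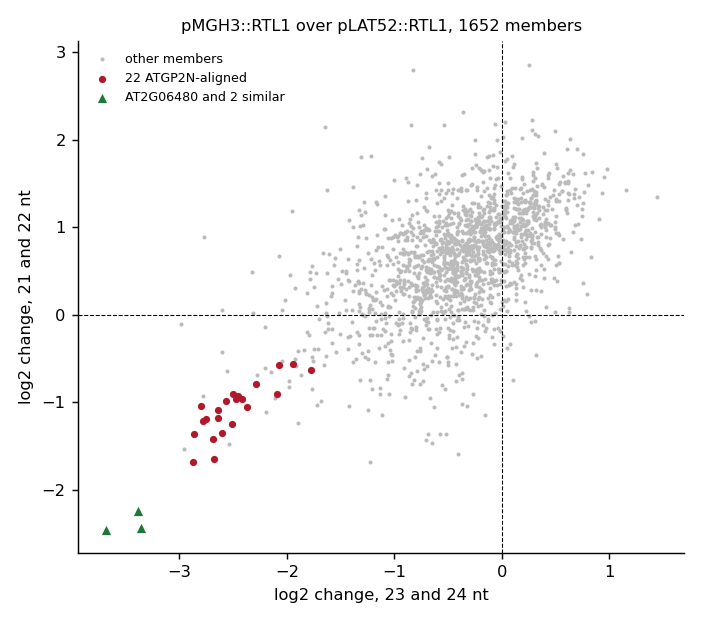
Each of the 1652 members is placed by its log2 change in pMGH3::RTL1 over pLAT52::RTL1 pollen at 23 and 24 nt (x axis) and at 21 and 22 nt (y axis). Most (1003) lie in the upper left, while all 22 ATGP2N-aligned members lie in the lower left with medians of -2.54 and -1.05.

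The scaling of the libraries moved this difference. Scaled to the microRNA genes or to the summed signal, the members' changes in pMGH3::RTL1 over pLAT52::RTL1 pollen moved by medians of -0.43 and -0.50 on the log2 scale. The members lower were then 260 and 158 with 0 higher. Leaving out replicate 2 of pLAT52::RTL1 or of pMGH3::RTL1 left 0 calls (limma, 181 and 205 members lower at an unadjusted p), leaving out replicate 1 of pLAT52::RTL1 31 and of pMGH3::RTL1 37, and without replicate 1 or 2 of WT Col-0 there were 97 and 102.

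The members that align to ATGP2N windows stood together. The study lists 6 such windows and each also names a second family, so the alignment does not assign a TE gene to ATGP2N. The windows are regions called differentially methylated, and not a list of all ATGP2N copies. According to the paper, the family is poorly represented among hypomethylated regions, so other copies may be missing from the set. The set was drawn up after the values were seen and is given as a description. It holds 28 TE genes, of which 22 are members on all 5 chromosomes, 1068 to 7527 bp long. The members of the set were among the highest of all, with a WT Col-0 level of 582 to 1690 (median 1258), and made up 16 of the 20 highest members and 20 of the 30 highest. From 18 to 30 nt they summed to 7172 and 6781 in pMGH3::RTL1, against 28617 and 34083 in pLAT52::RTL1 and 27689 and 26528 in WT Col-0 pollen. They held 5.94% and 5.63% of the member signal from 21 to 24 nt in pMGH3::RTL1, against 18.6% and 22.9% in pLAT52::RTL1 and 16.7% and 17.1% in WT Col-0 pollen.

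All 22 were lower in pMGH3::RTL1 pollen relative to pLAT52::RTL1 in limma's test, with a median log2 change of -2.24 (-2.66 to -1.55). The 6 that are not members, which lie outside the pericentromeric runs, were lower as well. The other 1630 members had a median of -0.13, with 41 lower. AT5G29060, a 1068-bp locus on chromosome 5, changed most of the set, with 206.9 and 174.2 in pMGH3::RTL1 pollen, against 1110 and 1315 in pLAT52::RTL1 and 1141 and 1068 in WT Col-0 pollen (-2.66 ± 0.23, limma adjusted p = 0.0025). AT5G28120 had 491.4 and 464.1 in pMGH3::RTL1, against 1900 and 2309 in pLAT52::RTL1 pollen (-2.13). AT4G04655, a 7527-bp locus on chromosome 4 in which 75.4% of 24-base words are unique, had 449.8 and 412.7 in pMGH3::RTL1, against 1698 and 2018 in pLAT52::RTL1 pollen (-2.10). AT3G31945 kept more, with 591.4 and 625.5 in pMGH3::RTL1, against 1848 and 2063 in pLAT52::RTL1 pollen (-1.68). In each of these 4 members both pMGH3::RTL1 values lay below every value of pLAT52::RTL1 and WT Col-0 pollen. Of the 6 highest members, AT2G10600 and AT5G31770 lie outside the set. AT2G10600 had 1988 and 1875 in pMGH3::RTL1, against 2066 and 2010 in pLAT52::RTL1 pollen (-0.08 ± 0.25, limma adjusted p = 0.884), and AT5G31770 had 1472 and 1371 in pMGH3::RTL1, against 1256 and 1145 in pLAT52::RTL1 pollen (0.24 ± 0.27, limma adjusted p = 0.614), a difference whose sign turned when the libraries were scaled to the microRNA genes or the summed signal. Without replicate 2 of pLAT52::RTL1 or of pMGH3::RTL1 0 of the 22 were called, and at 21 and 22 nt 5 were.

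**Figure D4:**
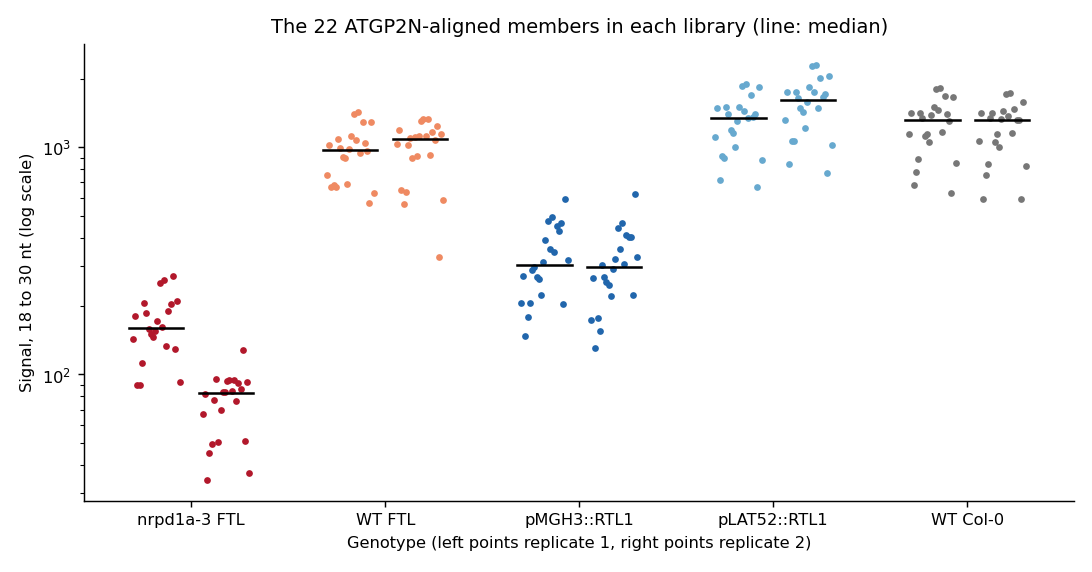
Each point is the signal from 18 to 30 nt (y axis, logarithmic) of 1 of the 22 ATGP2N-aligned members in 1 library, with replicate 1 to the left and replicate 2 to the right in each genotype and a line at the median. The medians of pMGH3::RTL1 (304 and 298) lie between those of nrpd1a-3 FTL (160 and 82.9) and those of WT FTL (975 and 1089), pLAT52::RTL1 (1351 and 1617) and WT Col-0 (1323 and 1319).

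The same 22 were lower in nrpd1a-3 FTL than in WT FTL pollen too, with a median log2 change of -3.17 (-3.54 to -2.39). This is no trait of the set alone. Of all 1295 members tested 1294 had a negative change, with a median of -2.41, and 21.8% of all loci tested were called lower by limma. The 22 summed to 3696 and 1668 in nrpd1a-3 FTL, against 21113 and 21797 in WT FTL pollen. In the set the WT FTL replicates were alike, whereas the members outside it summed to 96809 in replicate 1 and 57920 in replicate 2 of WT FTL. AT5G28120 had 259.9 and 94.6 in nrpd1a-3 FTL, against 1424 and 1332 in WT FTL pollen.

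The 3 members lowest in pMGH3::RTL1 relative to pLAT52::RTL1 pollen were the short loci on chromosome 2 whose sequences are printed. AT2G06480 had 56.6 and 43.9 in pMGH3::RTL1 pollen, against 495.0 and 612.2 in pLAT52::RTL1 and 467.9 and 477.3 in WT Col-0 pollen (-3.44 ± 0.23, limma adjusted p = 0.0020). AT2G10790 had 91.6 and 72.5 in pMGH3::RTL1, against 681.2 and 831.6 in pLAT52::RTL1 pollen (-3.19), and AT2G10770 had 106.5 and 80.6 in pMGH3::RTL1, against 767.7 and 911.1 in pLAT52::RTL1 pollen (-3.16). Their signal was depleted at both length classes. At 24 nt AT2G06480 had 31.5 and 24.2 in pMGH3::RTL1, against 308 and 347 in pLAT52::RTL1 pollen, and at 21 and 22 nt it had 15.7 and 10.7 in pMGH3::RTL1, against 69.4 and 82.4 in pLAT52::RTL1 pollen. In sorted pollen AT2G06480 had 40.6 and 28.3 in nrpd1a-3 FTL, against 284.9 and 440.3 in WT FTL pollen. The first 250 bases of AT2G06480 aligned to 38 other TE genes, 24 of them members and 26 in the ATGP2N-aligned set, at identities down to 72.4%, and all 38 were lower in pMGH3::RTL1 pollen. In 7 of them the alignment reached 90% identity over at least 180 bases. Since the query was chosen for its change and these loci resemble it in sequence, this is a description too. Which of them share reads with AT2G06480 was not measured.

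Beyond the ATGP2N-aligned set and these 3, another 38 members were lower in pMGH3::RTL1 relative to pLAT52::RTL1 pollen, with 16, 15, 14, 12 and 6 of all 63 on chromosomes 2, 5, 3, 4 and 1. In 10 of the 63, at least 90% of the 24-base words occur nowhere else in the genome. The 41 outside the ATGP2N-aligned set summed to 2882 and 2768 in pMGH3::RTL1, against 9869 and 11174 in pLAT52::RTL1 and 9003 and 8972 in WT Col-0 pollen. The 1 member that was higher was AT1G37405, a 5961-bp ATHILA2 copy on chromosome 1. It had 484.6 and 514.7 in pMGH3::RTL1 pollen, against 274.2 and 210.7 in pLAT52::RTL1 and 477.0 and 434.8 in WT Col-0 pollen (1.05 ± 0.23, limma adjusted p = 0.0495, or 0.0675 with the replicate block). Against WT Col-0 it was at 0.13 in pMGH3::RTL1 and at -0.92 in pLAT52::RTL1 pollen (limma adjusted p = 0.0998 for the second). Scaled to the microRNA genes or to the summed signal, no member was higher between the constructs.

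Against WT Col-0, whose libraries chose the members and serve both constructs, the values are given as a description. In pMGH3::RTL1 pollen 38 members were lower and 0 higher in limma's test (10 higher at an unadjusted p below 0.05), where 0.958% of all loci were lower and 0.475% higher. The median log2 change was -0.24 (all loci 0.08), and AT2G06480 (-3.22), AT2G10790 (-3.01) and AT2G10770 (-2.93) were again the lowest. In pLAT52::RTL1 pollen 0 members were lower and 0 higher (136 and 24 at an unadjusted p), where 0.155% of all loci were lower and 1.63% higher, with a median of -0.12 (all loci 0.17). All 22 ATGP2N-aligned members were lower in pMGH3::RTL1 than in WT Col-0 pollen (median -2.05), and none was called in pLAT52::RTL1 pollen, where their median was 0.21. The same 3 scalings moved the members' changes by medians of -0.07, -0.77 and -0.71 in pMGH3::RTL1 and of -0.09, -0.33 and -0.22 in pLAT52::RTL1 pollen.

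By family, every median was negative in nrpd1a-3 FTL pollen, and medians of both signs were found between the RTL1 constructs. Families came only from differentially methylated regions, among them regions called in nrpd1a-3 FTL and RTL1 pollen. Members with a family may thus not stand for the rest, and the medians are a description. In the 27 families with at least 5 members, which hold 571 members, the median log2 change in nrpd1a-3 FTL over WT FTL pollen ran from -2.84 in ATLANTYS1 to -2.07 in ATENSPM1A. In pMGH3::RTL1 over pLAT52::RTL1 pollen the family medians ran from -1.12 in HELITRONY3 to 0.42 in ATHILA6B, with 12 below 0 and 15 above. HELITRONY3, a family of Helitrons, which transpose by rolling-circle replication, summed to 909 and 942 over its 11 members in pMGH3::RTL1, against 2104 and 1671 in pLAT52::RTL1 and 2004 and 1150 in WT Col-0 pollen, and 2 of its members were lower in the test. Among 9 Athila families with 362 members, 7 had a median above 0 in this comparison, and the 135 ATHILA2 copies summed to 16962 and 16428 in pMGH3::RTL1, against 15734 and 13662 in pLAT52::RTL1 and 19103 and 17233 in WT Col-0 pollen. Scaled to the microRNA genes or to the summed signal all 27 family medians lay below 0 (up to -0.01 and -0.08). No difference between families was tested.

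**Figure D5:**
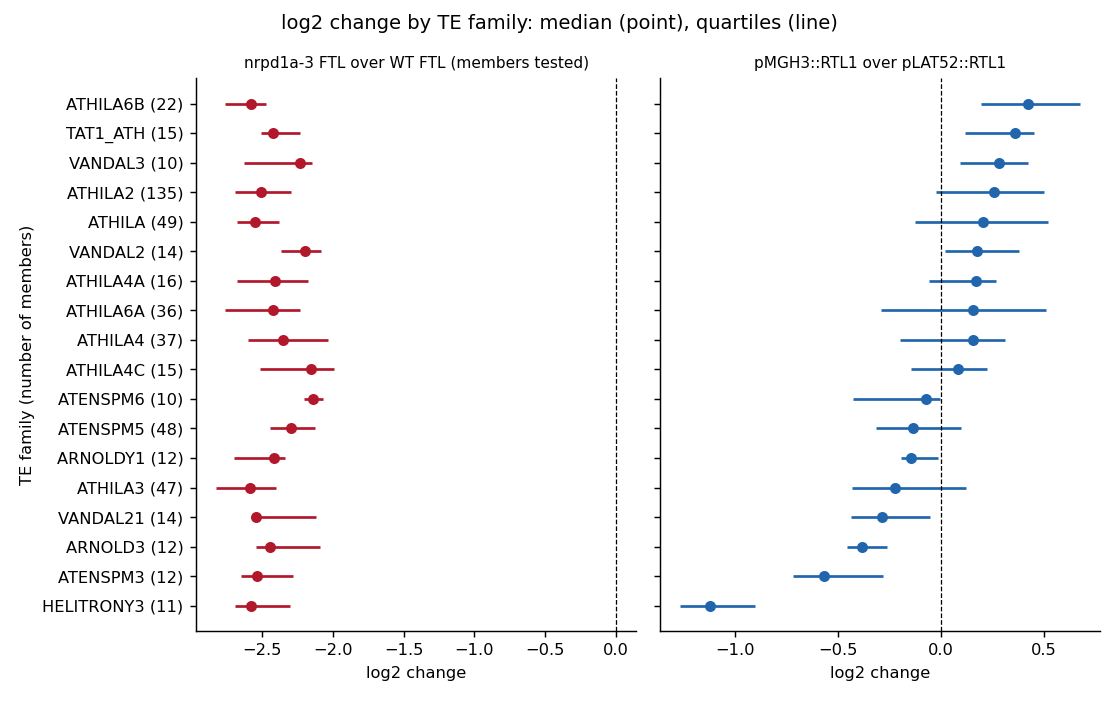
Points give the median and lines the quartiles of the log2 change of each of the 18 TE families with at least 10 members (number in brackets), for nrpd1a-3 FTL over WT FTL pollen on the left and pMGH3::RTL1 over pLAT52::RTL1 pollen on the right. All families lie left of 0 on the left panel, whereas on the right panel HELITRONY3 is lowest (-1.12) and ATHILA6B highest (0.42).

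The difference between the constructs was set beside level and sequence uniqueness. From the lowest to the highest of 4 equal groups of members by WT Col-0 level, the median log2 change in pMGH3::RTL1 over pLAT52::RTL1 pollen was -0.41, -0.26, -0.02 and 0.13, yet 43 of the 63 members that were lower lay in the highest group, which holds the ATGP2N-aligned set. In the 365 members with at least 90% unique 24-base words it was -0.20, and 10 were lower. In 334 of these 365 both nrpd1a-3 FTL libraries lay below both WT FTL libraries. Over all members this held in 1579 of 1652, and over all 32679 loci with signal in 49.8%. Medians by chromosome ran from -2.44 to -2.35 in nrpd1a-3 FTL pollen and from -0.18 to -0.06 between the constructs.

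The pericentromeric TE genes under the length share had a median change of -2.13 in nrpd1a-3 FTL over WT FTL pollen, with 504 of 1060 tested lower. The 148 TE genes on the arms that met the same level and length share had one of -2.24, with 65 of 127 tested lower. Of the members 715 of 1295 tested were lower, and of all loci tested 21.8%. Between pMGH3::RTL1 and pLAT52::RTL1 pollen the pericentromeric TE genes under the length share had a median of 0.32, with 11 of 1276 tested lower and 17 higher. Those on the arms had one of 0.02, with 12 of 147 tested lower and 1 higher. Of the 1652 members 63 were lower and 1 higher, and of all loci tested 2.49% and 1.05%. Both sets differed by length as the members did. At 24 nt the pericentromeric TE genes under the length share summed to 86692 and 89278 in pMGH3::RTL1, against 106490 and 97897 in pLAT52::RTL1 pollen. At 21 and 22 nt they had 115254 and 125035, against 84740 and 80344. Those on the arms had 8230 and 8549 at 24 nt, against 14350 and 14629, and 4046 and 4420 at 21 and 22 nt, against 3209 and 3464. No difference between these sets was tested.

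Small RNAs at the genes of the pathway itself were few. Of 27 genes that make or use siRNAs (9 for the making of 24-nt siRNAs, 12 for their use in methylation, and 6 of the 21- and 22-nt pathway or DDM1, a chromatin remodeller), 6 had enough reads in sorted pollen and 0 were called in nrpd1a-3 FTL over WT FTL pollen by limma (0 at an unadjusted p below 0.05). Of 12 with enough reads in the other pollen, 1 was lower and 0 higher in pMGH3::RTL1 over pLAT52::RTL1 (2.49% and 1.05% of all loci tested). This was KTF1 (AT5G04290), an elongation factor-like protein of RdDM, with 4.24 and 1.46 in pMGH3::RTL1, against 19.7 and 29.6 in pLAT52::RTL1 and 18.1 and 23.8 in WT Col-0 pollen (-2.81 ± 0.48, limma adjusted p = 0.0205). A single read was taken as 1.06 and 1.46 units in the pMGH3::RTL1 libraries, so the KTF1 values there rest on very few reads. All KTF1 values are of small RNAs on the gene and not of its messenger RNA.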

How the data were processed

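The signal values that the authors deposited give, for each TAIR10 locus and RNA length, perfectly matching reads (single-end, mapped with Bowtie) divided by their number of genomic hits and scaled to library size. A library's values sum to more than a per-million scale allows, so the values were treated as signal and not as counts. The authors' own test was DESeq2. Lengths above 30 nt (3704 values in replicate 1 of WT FTL and 2330 in replicate 1 of nrpd1a-3 FTL) were not used.

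For every locus the signal was added up from 18 to 30 nt. A locus entered the test if its hit-weighted reads averaged 12 or more over the libraries compared, and was analysed on log2(signal + 1) with limma 3.58.1 in R 4.3.3 (empirical Bayes, variance trend, two-sided, Benjamini-Hochberg over all loci tested, threshold 0.05). The 6 unsorted libraries shared a fit and the 4 sorted libraries another. Changes on this scale understate those of low loci. The few reads on members limit precision most in the nrpd1a-3 FTL libraries. Reads were counted without molecular identifiers, so their error can exceed counting error. On simulated data with 200 loci changed by a log2 value of 2, 175 of 200 were recovered with 9 false calls (11103 loci) in pMGH3::RTL1 against pLAT52::RTL1, and 65 of 200 with 7 false calls (6856 loci) in nrpd1a-3 FTL against WT FTL. All simulated loci had the same spread beyond counting, and same-numbered libraries were drawn independently. Recovery and false calls in the real libraries can therefore differ.

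Families came from aligning the study's differentially methylated windows with BLAST+ 2.17.0 at 80% identity over 80 bp. Sequences and coordinates are RefSeq's TAIR10.1, and of 201 regions with a gene assigned by the study 199 overlapped that gene there. Tables used Python 3.11.15, pandas 2.3.3 and numpy 2.4.6, and figures matplotlib 3.10.9.

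Members, gene lists and tests were chosen with earlier results of these data known. Named are the 6 highest members, the 5 most negative and 3 most positive changes in nrpd1a-3 FTL among members with both WT FTL libraries at 10 or more, up to 4 in each direction between the constructs, up to 3 against WT Col-0, and 3 on each side of each limit. AT4G04655, AT3G31945 and AT5G28120 also stand for the ATGP2N-aligned set. Alternatives were other scalings, pseudocounts, filters, lengths, member limits, a replicate block, no variance trend, fits on fewer libraries, and leaving out each library in turn.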

Additional observations from a re-analysis of the deposited data

Results flagged for a closer look

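Of the members named by the rule, 11 differed between the RTL1 constructs in limma's contrast of pMGH3::RTL1 over pLAT52::RTL1 pollen, the test of the difference itself. AT2G06480, AT2G10790, AT2G10770, AT5G29060 and AT1G37405 were named because they passed this same test, so their calls here are no added result. Over all 11584 loci tested, 2.49% were lower and 1.05% higher. AT2G06480 (-3.44), AT2G10790 (-3.19) and AT2G10770 (-3.16) were lower on the log2 scale, as were the ATGP2N-aligned AT5G29060 (-2.66), AT5G28110 (-2.17), AT5G28120 (-2.13), AT4G04655 (-2.10) and AT3G31945 (-1.68). AT4G08109 (-1.68) and AT2G10960 (-1.22), named for their change in nrpd1a-3 FTL pollen, were lower too. AT1G37405 (1.05) was higher, with both libraries of pMGH3::RTL1 above all 4 libraries of pLAT52::RTL1 and WT Col-0 pollen. Its limma adjusted p of 0.0495 was at the edge of the threshold, and it was not called with the replicate block. Against WT Col-0 its log2 change was 0.13 in pMGH3::RTL1 and -0.92 in pLAT52::RTL1 pollen, and neither passed the test.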

How the results depend on the processing

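The median change of the members in nrpd1a-3 FTL over WT FTL pollen was negative under all 20 alternatives (-3.01 to -1.31), with -1.31 after scaling to the median ratio. The count of calls (715) was less stable. It was 0 with the median ratio, no filter, a pseudocount of 0.1, no variance trend or lengths of 23 and 24, 24, 21 and 22 or 21 to 24 nt, 1204 with the summed signal, 219 and 1114 with length shares of at least 0.80 and 0.70, and 0 to 1229 with a library left out. With the replicate number as a block it was 1270. Deviations of same-numbered sorted libraries correlated (r = 0.57 over loci), with 2 pairs sorted simultaneously but no source that ties a number to 1 sort, and those of the unsorted libraries did not (-0.0043 to 0.08). The block changed no other count by more than 1.5 times, and of the named members it changed the calls of AT2G10600 in nrpd1a-3 FTL pollen and AT1G37405 between the constructs.

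For pMGH3::RTL1 over pLAT52::RTL1 pollen the count of 64 became 260 scaled to the microRNA genes, 158 to the summed signal, 192 at 23 and 24 nt, 127 at 24 nt and 0 to 102 with a library left out, and the median of -0.14 became -0.57, -0.63, -0.36, -0.38, 0.82 at 21 and 22 nt, -0.35 and 0.0035 with length shares of at least 0.80 and 0.70, -0.072 with a level of at least 20, and -0.18 to -0.058 with a library left out. The ATGP2N-aligned count of 22 became 5 at 21 and 22 nt and 0 to 22 with a library left out.

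For pLAT52::RTL1 over WT Col-0 the count of 0 became 1 (median ratio), 15 (microRNA genes), 2 (23 and 24 nt), 3 (24 nt), 11 (21 and 22 nt), 3 (21 to 24 nt) and 0 to 5, and the median of -0.12 became -0.21, -0.45, -0.34 (summed signal), 0.00034, 0.11, -0.65, 0.0091 (share 0.80) and -0.20 (share 0.70). For pMGH3::RTL1 over WT Col-0 the count of 38 became 739, 156 (summed signal), 77, 4 (21 and 22 nt) and 0 to 71, and the median of -0.24 became -0.31, -1.0, -0.95, -0.33, 0.17 (21 and 22 nt), -0.36 and -0.17. The 24-nt share of the members, 63.3% in nrpd1a-3 FTL, 56.8% in WT FTL, 53.7% in pMGH3::RTL1, 64.8% in pLAT52::RTL1 and 55.4% in WT Col-0 pollen, was 78.5%, 79.7%, 73.5%, 85.8% and 79.5% with 23 nt added, 56.3% in pMGH3::RTL1 and 66.3% in pLAT52::RTL1 with a length share of at least 0.80, and 57.6% in WT FTL as a mean over members.

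Among single members, AT2G10600 was 0.79 at 21 and 22 nt and AT5G31770 -0.20 and -0.26 (microRNA genes, summed signal) between the constructs. In nrpd1a-3 FTL pollen, AT3G42450 was 0.81 (median ratio) and -0.83 to 0.12 with a library left out, AT5G35336 0.82 and -0.90 to 0.13, and AT5G39205 -0.17 (summed signal). The causes were not tested. The depth of the nrpd1a-3 FTL libraries, 8.58 and 4.58 reads for the median member, limits single loci there.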
